A study of Mus musculus with 48 samples.

Results

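Complement genes were followed in purified oligodendrocyte-lineage cells and microglia from neonatal mouse cortex after systemic inflammation. The 9 genes were C1qa, C1qb and C1qc (the chains of C1q), C4b, C3 and Cfb (components of the cascade), C3ar1 and C5ar1 (receptors for its cleaved fragments) and Serping1 (the C1 inhibitor). They were chosen by name, with earlier results of these data known. Every non-control probe that the array design names after one of them was kept. This gave 11 probes on 29 spots, out of 52937 probes that carry 1 of 32053 gene names on 59305 spots.

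The study asked how a model of encephalopathy of prematurity changes the transcriptomes of both cell types. The 48 samples formed 8 groups of 6, and each sample was hybridised to its own 1-colour Agilent array. All pups were male Swiss mice (OF1 in the study's methods). They received PBS or IL1B, an inflammatory cytokine, by injection into the peritoneum (IL1B at 10 ng per g), with 2 injections a day from P1 to P4 (P, postnatal day) and 1 at P5, and cortical cells were taken at P5, within hours of that injection, or at P10. Cells that bound the O4 antibody, which marks the oligodendrocyte lineage, were removed first by magnetic sorting, and CD11B+ cells were then taken from what remained of the same animals. The groups were therefore O4+ P5 PBS, O4+ P5 IL1B, O4+ P10 PBS, O4+ P10 IL1B, CD11B+ P5 PBS, CD11B+ P5 IL1B, CD11B+ P10 PBS and CD11B+ P10 IL1B. Per the study's methods, tissue of several pups was pooled for each sample. Every sample is a sorted population rather than 1 cell type, and the labels do not say which O4+ and CD11B+ samples came from the same animals. The p-values measure the spread between these samples.

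Complement is a cascade of blood and tissue proteins that tags surfaces for removal and calls in immune cells. C1q recognises the target, the C1 proteases then cleave C4 and C2, and the convertases formed from C4 or, in the alternative pathway, from factor B cleave C3. The released fragments C3a and C5a signal through C3ar1 and C5ar1. In the brain C1q is made mainly by microglia, and complement is known for its part in the removal of synapses during development.

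The probes of the members lie on chromosomes 2, 4, 6, 7 and 17 (build mm9), all on the minus strand. C1qa (chr4:136452409-136452468), C1qb (chr4:136436578-136436637) and C1qc (chr4:136445766-136445825) are neighbours. C4b (chr17:34865328-34865387) and Cfb, whose probe crosses an exon junction (chr17:34993502-34993858), lie near each other, while C3 had a probe at chr17:57343678-57343737 and a further one at chr17:57343416-57343475. C3ar1 was measured at chr6:122798222-122798281 and C5ar1, by a probe designed on a transcript variant, at chr7:16832243-16832302. Serping1 had a probe at chr2:84605663-84605722 and one across a junction at chr2:84605968-84607474. The following sequences, from the array files, are shown because they fix what was measured for C1qa and C1qb, for the coding probe of C3, for the junction of Cfb and for the junction of Serping1, with no base marked.
C1qa: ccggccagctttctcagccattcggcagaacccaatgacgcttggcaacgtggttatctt
C1qb: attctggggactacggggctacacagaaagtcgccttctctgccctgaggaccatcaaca
C3, coding probe: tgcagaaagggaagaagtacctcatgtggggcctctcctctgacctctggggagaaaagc
Cfb: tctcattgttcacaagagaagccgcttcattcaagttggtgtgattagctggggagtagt
Serping1, junction probe: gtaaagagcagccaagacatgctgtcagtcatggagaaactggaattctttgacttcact

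Of the 5 members with an entry among RefSeq promoters (GRCm38.p6; C1qb, C1qc, C3, C3ar1 and C5ar1), only C5ar1 held one of the motifs searched on both strands. The motifs were TTCNNNGAA (STAT), GAAANNGAA (interferon-stimulated response element) and GGGANNTTC, GGGANNTCC, GGGGNNTTC or GGGGNNTCC (NF-kappaB), which occur in 8.3%, 8.6% and 16.0% of the 32851 promoters of that table. The match to GAAANNGAA lay on the minus strand 66 bases before the start and is in capitals in the 250 bases before the C5ar1 start, shown because it held the only match.
C5ar1, chr7:16259339-16259588, minus strand: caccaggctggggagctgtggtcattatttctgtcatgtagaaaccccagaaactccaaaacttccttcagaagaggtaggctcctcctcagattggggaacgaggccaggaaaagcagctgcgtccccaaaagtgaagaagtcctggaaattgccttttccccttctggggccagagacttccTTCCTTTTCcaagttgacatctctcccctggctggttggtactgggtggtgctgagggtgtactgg
A match is only a run of letters, and these data hold no measurement of factor binding.

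Values are log2 of the normalised intensity, with the probe of the higher mean over all 48 arrays standing for a gene that has 2. Levels given by group were normalised over the 24 arrays of a cell type, and differences between cell types come from values normalised over all 48. A probe was "well above background" where the scanner software marked it so, which held for 55.78 to 65.4% of probes on the O4+ arrays and 52.9 to 62.27% on the CD11B+ arrays. A member was called higher or lower where limma gave an adjusted p under 0.05 over all 55681 probes and the ratio of the group medians passed 1.5. One library stood apart from its label. The library labelled CD11B+ P10 PBS replicate 6 had a mean correlation of 0.98667 with the other CD11B+ P10 PBS arrays and 0.98973 with the IL1B arrays of that age, and the members and marker lists of the comparisons that use it were also fitted without it, a choice made after the data were seen. The O4+ arrays carried the oligodendrocyte lineage markers (11 of 11 higher than in CD11B+ cells at both ages). All 15 microglia markers were also well above background on every O4+ array, at a median log2 difference of -3.03 from CD11B+ cells at P5 and -4.65 at P10. Itgam, the gene of CD11B itself, had a probe that was brighter in O4+ cells by 2.00 at P5, unlike its other 2 probes.

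In PBS cells, 8 of the 9 members were lower in O4+ than in CD11B+ cells at P5 and 8 of 9 at P10, where Serping1 was higher. Without the library labelled CD11B+ P10 PBS replicate 6 the P10 counts were again 8 lower and 1 higher. The differences then ran from -1.62 for C3, on its coding probe, to -5.05 for C5ar1, with 1.16 for Serping1 (adjusted p = 3.438e-05 from limma). C5ar1 was not well above background on any O4+ array at P10, so its difference rests on dim spots. Among all probes, 21.8% were called lower at P5 and 20.2% at P10 (22.2% higher at P10). With IL1B, 8 members were higher in O4+ cells at P5, against 3.44% of all probes, and 6 at P10, against 2.49%. In CD11B+ cells 4 members were higher at P5, against 4.06% of all probes, and 4 at P10, against 1.09%. No member was called lower with IL1B in any of the 4 comparisons, where few of all probes were (1.49, 1.41, 5.25 and 1.08% in that order). The 6 IL1B arrays lay wholly above the 6 PBS arrays for 8, 3, 5 and 1 members in that order, where the groups were separate, in either direction, for 11.5, 6.24, 15.8 and 3.89% of all probes. The median change over the 9 members was 1.79, 0.67, 0.62 and 0.65 in that order, beside -0.04, -0.02, -0.01 and 0.00 over all probes. From P5 to P10 in PBS cells, 6 members were lower in O4+ cells (8.97% of all probes; C5ar1 among them, with 1 and 0 of 6 arrays well above background) and 2 in CD11B+ cells (3.62%). The response at P10 was smaller than at P5 for 6 members in O4+ cells (5.32% of all probes) and 2 in CD11B+ cells (6.3%). At P5 it was larger in O4+ than in CD11B+ cells for 6 members (6.93%) and smaller for 1 (3.78%), and at P10 it differed for 2 (7.56% in either direction). Among the P5 differences, those of Cfb and C5ar1 were lost with another background correction and that of C3 on its other probe. The 2 IL1B comparisons of a cell type and its age comparison share PBS arrays. No slide and no scan day held arrays of both ages, so age cannot be told apart from slide or scan day in the age comparisons. The plot of log2 levels in the 8 groups shows all values.

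**Figure D1:**
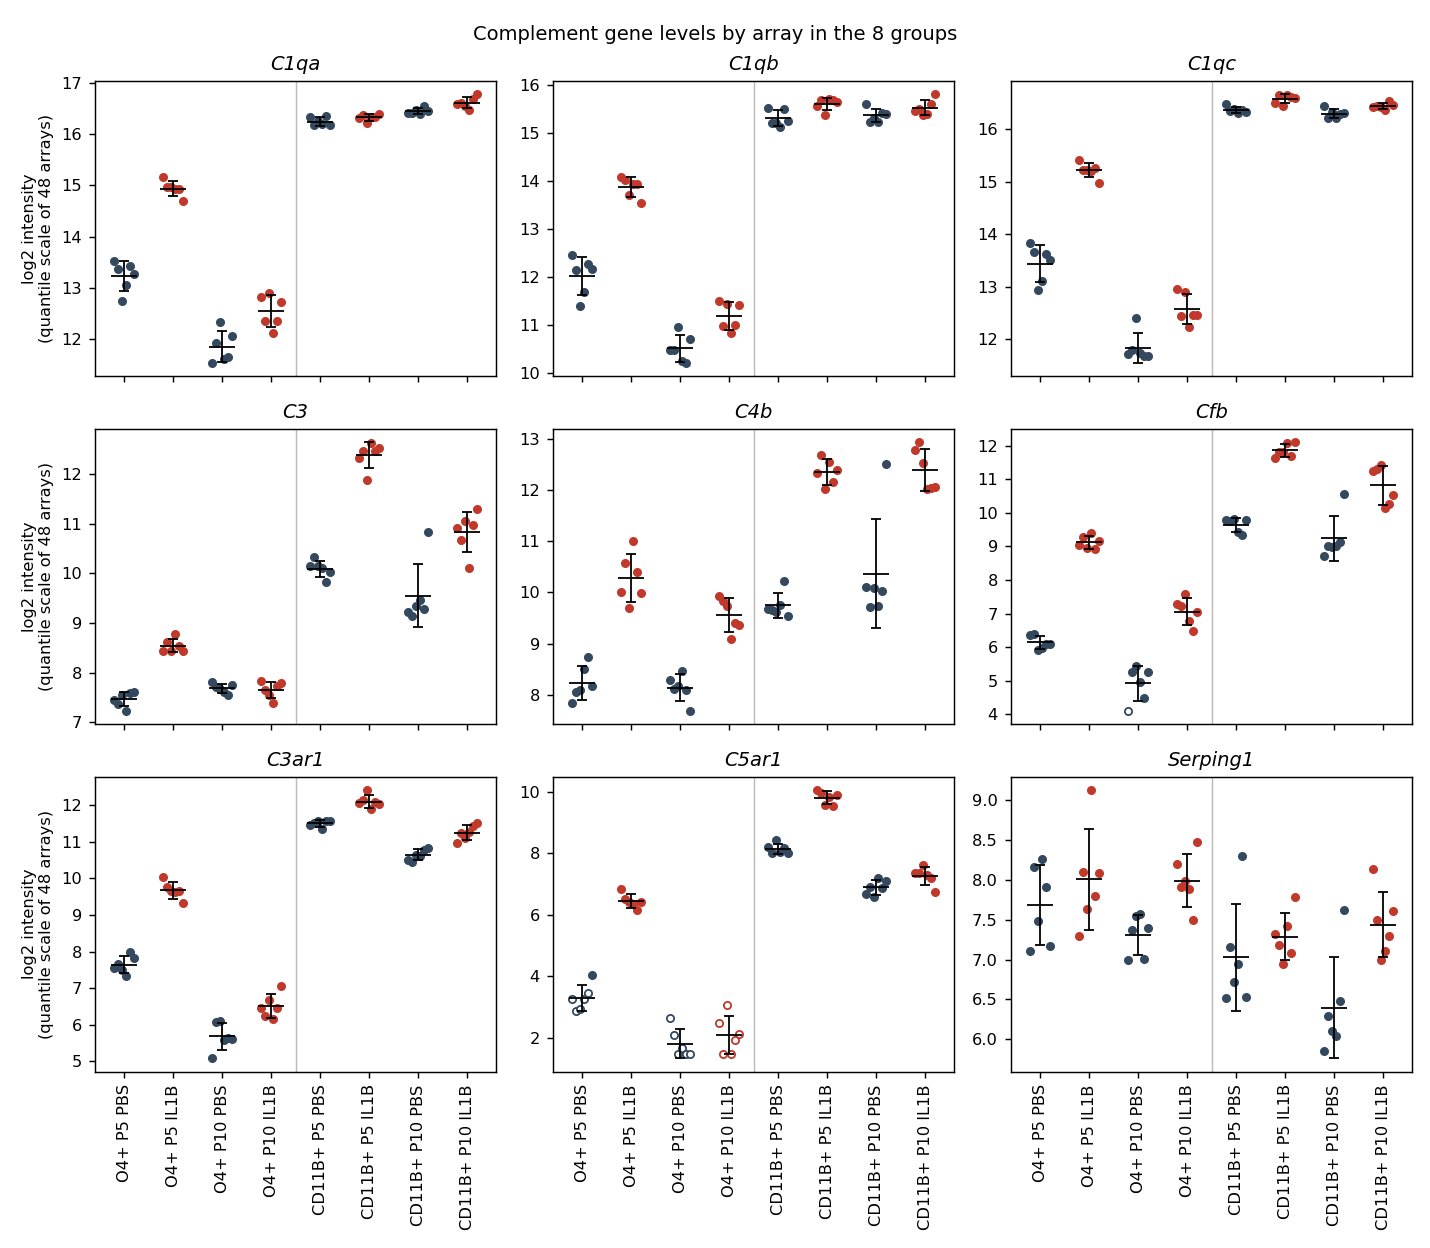
Log2 normalised intensity of the 9 complement genes in the 8 groups of 6 arrays, on values normalised over all 48 arrays, with a point per array and bars for the mean and SD. Open circles mark arrays on which the probe was not well above background, as for C5ar1 in all 12 O4+ arrays at P10. The mean of each CD11B+ group lies above that of every O4+ group for the genes other than C4b and Serping1. For C3, C4b and Cfb, 1 CD11B+ P10 PBS point lies near the IL1B points. Without that point the CD11B+ P10 PBS mean of Cfb would lie below that of O4+ P5 IL1B.

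C1q genes had different responses in the 2 cell types. C1qa, a chain of the recognition molecule, had in O4+ P5 PBS cells a lowest, median and highest value of 12.76, 13.30 and 13.52, against 14.64, 14.87 and 15.06 with IL1B. The IL1B arrays were all above the PBS arrays. The ratio of medians was 2.95-fold (log2 change 1.64, SE 0.12, adjusted p = 7.282e-06 from limma). C1qb and C1qc changed alike, with ratios of 3.31 and 2.99-fold (log2 changes 1.79, SE 0.17, and 1.69, SE 0.14), and their groups did not overlap either.

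At P10 the same chains were lower in O4+ cells and the IL1B difference was smaller. C1qa ranged from 11.60 through a median of 11.84 to 12.35 with PBS, and from 12.17 through 12.56 to 12.89 with IL1B. The groups overlapped for each chain. The ratios were 1.64, 1.61 and 1.62-fold for C1qa, C1qb and C1qc (adjusted p = 0.02428, 0.02013 and 0.01371 from limma). The P10 response minus the P5 response was -0.97 for C1qa, -1.15 for C1qb and -0.99 for C1qc (interaction adjusted p = 0.00292, 0.001698 and 0.003081 from limma). The C1qa call at P10 was lost without PBS replicate 4 or 5 or IL1B replicate 1, 3 or 6 (log2 changes 0.62, 0.63, 0.61, 0.60 and 0.63), and with slide as a block (0.72, adjusted p = 0.06446 from limma). The C1qb call was lost without IL1B replicate 1, 3 or 6 (0.58, 0.59 and 0.60) and with another background correction (0.59).

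In CD11B+ cells the C1q genes were high in each group and hardly moved. C1qa spanned 16.33, 16.39 and 16.53 (lowest, median, highest) with PBS and 16.39, 16.50 and 16.57 with IL1B at P5, and 16.57, 16.60 and 16.73 with PBS and 16.64, 16.78 and 16.96 with IL1B at P10. The groups overlapped at both ages. C1qb was 1.38-fold and C1qc 1.20-fold higher with IL1B at P5 (adjusted p = 0.02198 and 0.009842 from limma), both short of the 1.5-fold threshold. None of the chains passed the test at P10, with log2 changes of 0.15 to 0.17. None of these spots was saturated.

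The C1q response at P5 differed between the cell types. It was larger in O4+ than in CD11B+ cells by 1.62 for C1qa (SE 0.14, interaction adjusted p = 7.346e-08 from limma), by 1.55 for C1qb and by 1.57 for C1qc. At P10 it was larger by 0.59 for C1qc (SE 0.17, adjusted p = 0.03397 from limma), a call lost with 75th percentile scaling (0.36, adjusted p = 0.1268) and with slide as a block (0.66, adjusted p = 0.1034). In PBS cells C1qa was 7.45-fold lower in O4+ than in CD11B+ cells at P5 and 24.85-fold lower at P10, C1qb 8.46 and 29.49-fold, and C1qc 6.92 and 23.74-fold. From P5 to P10 C1qa, C1qb and C1qc fell 2.76, 3.01 and 3.40-fold in O4+ PBS cells (adjusted p at most 7.273e-05 from limma), while in CD11B+ cells no chain was called. C1qa there was 0.20 higher at P10 on the log2 scale, under the fold threshold. No slide or scan day held both ages.

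Microglia markers moved with the C1q genes in O4+ cells. Of the 15 markers, 9 were higher with IL1B at P5 and none lower (median change 0.85), 5 were higher at P10 (median 0.43), and 12 were lower at P10 than at P5 in PBS cells (median -1.08). Their summed normalised intensity was 267600 to 336000 in O4+ P5 PBS, 470000 to 577200 in O4+ P5 IL1B, 169800 to 242900 in O4+ P10 PBS and 200500 to 281900 in O4+ P10 IL1B, and all 15 were well above background on each array. In CD11B+ cells the same list had no marker higher and 5 lower with IL1B at P5 (median -0.26) and none called at P10 (median -0.14). Across the 24 O4+ arrays, which share groups, the mean of the markers had a Pearson r of 0.98 with C1qa and C1qb, 0.99 with C1qc, 0.97 with C3ar1, 0.93 with C5ar1, 0.86 with Cfb, 0.70 with C3, 0.62 with C4b and 0.37 with Serping1. In these bulk samples, more cells of a type and more RNA per cell cannot be told apart.

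Other markers also moved in the O4+ samples. Border macrophage markers were higher with IL1B at P5 for 3 of 7 (median change 0.56, summed intensity 7664 to 16570 with PBS and 9728 to 24700 with IL1B) and for none at P10 (median -0.18). Endothelial markers were lower with IL1B at P5 for 5 of 7 in O4+ cells (median -0.89, summed intensity 25340 to 54120 with PBS and 16450 to 24260 with IL1B) and for 5 of 7 in CD11B+ cells (median -0.94, 11460 to 19180 and 6534 to 9473), and none was called at P10. Their part in the C1q values was not tested.

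Each member was also taken relative to the mean of the microglia markers on the same array. In O4+ cells at P5 the ranges with PBS and IL1B were then separate for 7 of the 9 members and overlapped for C3 and Serping1. On the C3 probe nearer the transcript end they were separate (-7.32 to -6.83 with PBS and -5.88 to -4.68 with IL1B). The marker mean itself was 13.01 in O4+ P5 PBS and 13.93 in O4+ P5 IL1B. The share of all probes that would be separate on this relative scale was not computed, so the count has no background beside it. For C1qa the difference (C1qa minus that mean, log2) was 0.08 to 0.37 in O4+ P5 PBS and 0.96 to 1.07 in O4+ P5 IL1B, and 0.38 to 0.67 in CD11B+ P5 PBS and 0.69 to 1.00 in CD11B+ P5 IL1B. These ranges did not overlap in either cell type, although in CD11B+ cells C1qa itself changed by 0.08 (adjusted p = 0.3105 from limma) and 5 of the markers were lower. At P10 they were -0.27 to 0.25 in O4+ PBS and -0.06 to 0.49 in O4+ IL1B, which overlapped. The part of other cells in the O4+ values was not tested. The plot of C1qa, C3ar1 and C4b levels against the microglia markers gives each array.

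**Figure D2:**
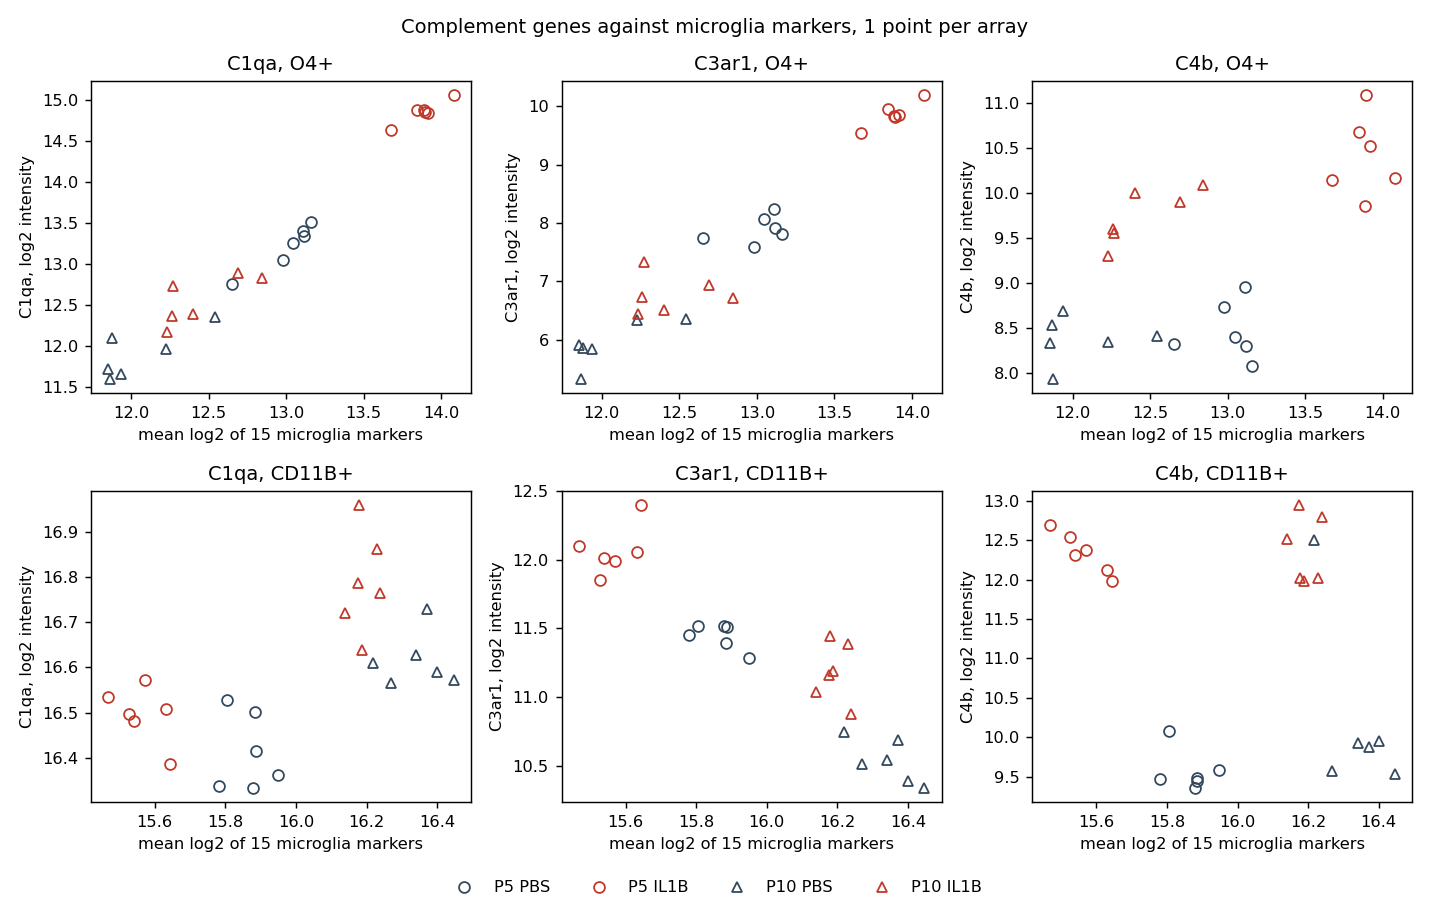
Log2 intensity of C1qa, C3ar1 and C4b (vertical) against the mean log2 intensity of 15 microglia markers (horizontal) on the same array. Points are 24 O4+ and 24 CD11B+ arrays, with colour for treatment and shape for age. In the O4+ arrays C1qa and C3ar1 rise along a line with the markers (r of 0.98 and 0.97), while C4b scatters more (0.62).

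The components C4b, C3 and Cfb rose with IL1B in CD11B+ cells at P5. C4b, which is cleaved to tag surfaces after C1 is activated, had a lowest, median and highest value of 9.36, 9.48 and 10.08 with PBS and 11.98, 12.34 and 12.69 with IL1B. C3, the central protein of the cascade, went from 9.66, 9.98 and 10.19 to 11.85, 12.45 and 12.61. Cfb, factor B of the alternative pathway, went from 9.14, 9.59 and 9.65 to 11.60, 11.78 and 12.07. The groups did not overlap for any of these genes. The ratios of medians were 7.27-fold for C4b (log2 change 2.76, SE 0.15, adjusted p = 2.906e-07 from limma), 5.55-fold for C3 (2.41, SE 0.13, adjusted p = 3.032e-07) and 4.54-fold for Cfb (2.35, SE 0.12, adjusted p = 2.22e-07). The C4b probe may also read the near-identical C4a, which had no probe of its own.

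At P10 these 3 genes were again higher with IL1B in CD11B+ cells, and 1 PBS library set the error. C4b had a lowest, median and highest value of 9.54, 9.90 and 12.50 with PBS and 11.98, 12.27 and 12.95 with IL1B, C3 of 8.94, 9.12 and 10.74 against 9.96, 10.85 and 11.22, and Cfb of 8.51, 8.79 and 10.47 against 9.99, 10.80 and 11.38. The highest PBS value was in each case that of the library labelled replicate 6, and without it the groups did not overlap, since the next highest values were 9.96, 9.28 and 8.93. The ratios of medians were 5.15-fold for C4b (log2 change 2.15, SE 0.47, adjusted p = 0.02654 from limma), 3.33-fold for C3 (1.37, SE 0.31, adjusted p = 0.03121) and 4.04-fold for Cfb (1.68, SE 0.37, adjusted p = 0.02653). Without that library the log2 changes were 2.60 (SE 0.20, adjusted p = 1.573e-04 from limma), 1.64 (SE 0.19, adjusted p = 0.00109) and 1.97 (SE 0.27, adjusted p = 0.002136), and 5 members were called higher, against 2.54% of all probes, up from 1.09%.

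These P10 calls did not hold under each alternative. With PBS replicate 1, 2, 3 or 4 or IL1B replicate 2 or 3 left out, 1 member was called (C3ar1), and without IL1B replicate 5 there were 2, while the probes called in all ran from 411 to 2741 with each array left out, against 1210 with every array. The slides held the groups unevenly, and 1 slide held both (2 PBS arrays, one of them the library labelled replicate 6, and 5 IL1B arrays). Within it the differences were 1.26 for C4b, 0.72 for C3 and 1.09 for Cfb, and with slide as a block no member and 2 probes in all were called (adjusted p = 0.515, 0.6114 and 0.5028 from limma). At P5 the slide with 1 PBS and 4 IL1B arrays gave differences of 3.08, 2.63 and 2.26, and the calls stood.

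In O4+ cells C4b and Cfb were also higher with IL1B, at both ages. At P5 C4b had a lowest, median and highest value of 8.08, 8.37 and 8.96 with PBS and 9.86, 10.34 and 11.09 with IL1B, and Cfb of 6.19, 6.36 and 6.66 against 9.13, 9.32 and 9.59. At P10 C4b had 7.94, 8.38 and 8.70 against 9.30, 9.75 and 10.09, and Cfb 4.34, 5.36 and 5.71 against 6.74, 7.40 and 7.82, with 5 of the 6 PBS arrays well above background. The groups did not overlap at either age. C4b was 3.94-fold higher at P5 (log2 change 1.94, SE 0.21, adjusted p = 1.018e-04 from limma) and 2.59-fold at P10 (1.37, SE 0.16, adjusted p = 0.001244). Cfb was 7.73-fold higher at P5 (2.92, SE 0.11, adjusted p = 8.786e-08 from limma) and 4.10-fold at P10 (2.15, SE 0.26, adjusted p = 0.001375). The responses of C4b and Cfb at the 2 ages differed by -0.58 and -0.77, neither of which passed the test (interaction adjusted p = 0.181 and 0.07725 from limma). For Cfb, 3 alternatives did pass (-1.08 with another background correction, -0.84 with normalisation over 48 arrays, -0.77 with dim probes left out). Astrocyte markers were higher with IL1B in O4+ cells at P10 for 3 of 7 (median change 0.56, summed intensity 31020 to 42670 with PBS and 44280 to 54030 with IL1B) and for none at P5 (median 0.16). Over the 24 O4+ arrays their mean had an r of 0.55 with C4b, and their part in its values was not tested.

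Against CD11B+ cells, the C4b response in O4+ cells differed by -0.57 at P5 (interaction adjusted p = 0.2236 from limma), a difference that was called with 75th percentile scaling (-0.91, adjusted p = 0.02838) and with normalisation within the cell types (-0.82, adjusted p = 0.04667). Cfb rose more in O4+ cells at P5 by 0.77 (SE 0.16, adjusted p = 0.002149 from limma), which was lost with 75th percentile scaling (0.52), another background correction (0.05) and the deposited normalised values (0.60). At P10 neither gene passed the test of the difference. Without the library labelled replicate 6, C4b rose less in O4+ than in CD11B+ cells (difference -1.04, adjusted p = 0.01288 from limma), a fit chosen after the data were seen.

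**Figure D3:**
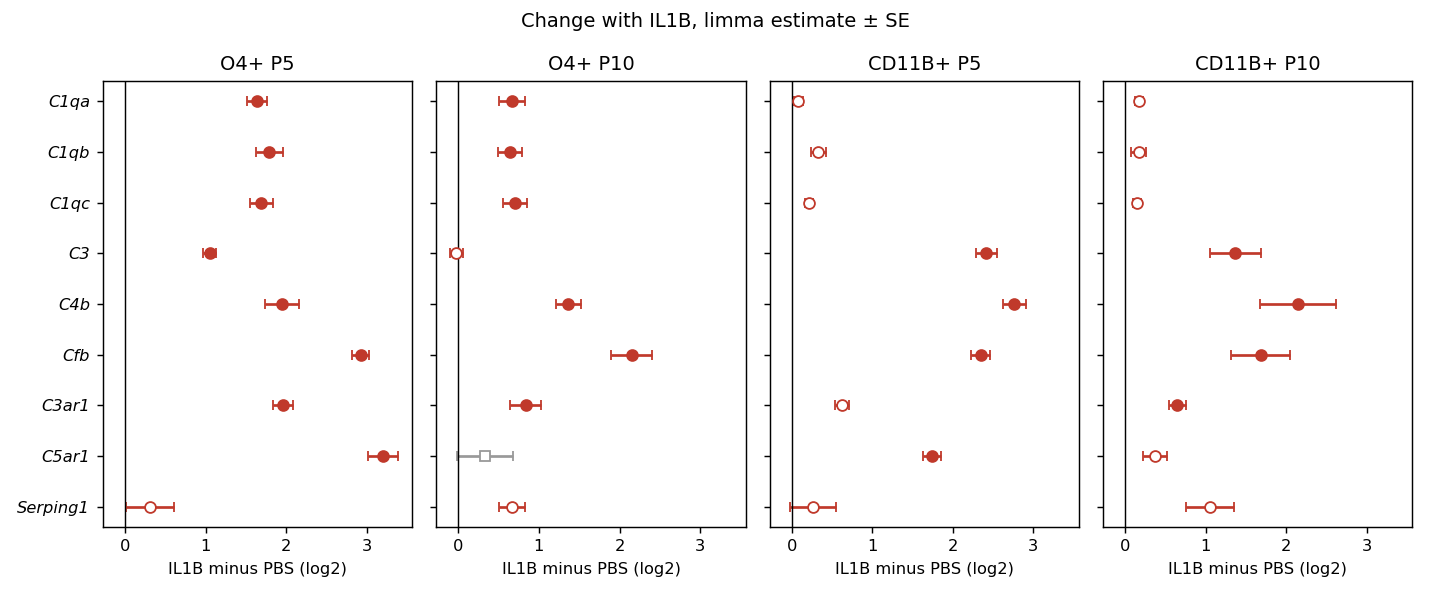
Log2 change with IL1B (horizontal, IL1B minus PBS) of each complement gene in the 4 comparisons of 6 against 6 arrays, with bars of 1 SE. Filled points were called (adjusted p under 0.05 and over 1.5-fold), and the grey square marks C5ar1 in O4+ cells at P10, not above background in either group. The C1q genes lie near 0 in CD11B+ cells and at 1.64 to 1.79 in O4+ cells at P5.

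C3 had 2 probes that did not give the same account in O4+ cells. On the coding probe, which stands for the gene elsewhere, O4+ cells had a lowest, median and highest value of 7.50, 7.75 and 7.85 with PBS and 8.67, 8.72 and 8.99 with IL1B at P5, and of 7.80, 7.93 and 8.06 against 7.65, 7.94 and 8.07 at P10. The other probe, nearer the transcript end, gave 6.07, 6.25 and 6.48 against 8.30, 8.82 and 9.46 at P5, and 5.33, 5.58 and 5.88 against 6.06, 6.83 and 7.40 at P10. Only that probe separated the groups at P10. C3 was thus 1.96-fold higher at P5 on the first (log2 change 1.05, SE 0.08, adjusted p = 7.128e-06 from limma) and 5.92-fold on the second (2.58, SE 0.16, adjusted p = 3.037e-06). At P10 the first gave -0.02 (SE 0.08, adjusted p = 0.8859 from limma) and the second 1.18 (SE 0.20, adjusted p = 0.005223).

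In CD11B+ cells the C3 probes moved alike, with 5.55 and 6.25-fold at P5. The difference in C3 response between the cell types therefore depends on the probe. It was -1.21 at P5 on the coding probe (adjusted p = 6.207e-06 from limma) and 0.13 on the other (adjusted p = 0.7851), and at P10 -1.31 (adjusted p = 0.01188) and -0.24 (adjusted p = 0.77). The age difference of PBS O4+ cells also turned, from 0.21 to -0.63. Both probes gave a smaller response at P10 than at P5 in O4+ cells (-1.07 and -1.39, adjusted p = 1.767e-06 and 0.001081 from limma). In CD11B+ cells the difference was -1.05 on the coding probe (adjusted p = 0.04109 from limma) and -1.11 on the other (adjusted p = 0.05283). The plot of both C3 probes by group shows the offset in O4+ cells.

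**Figure D4:**
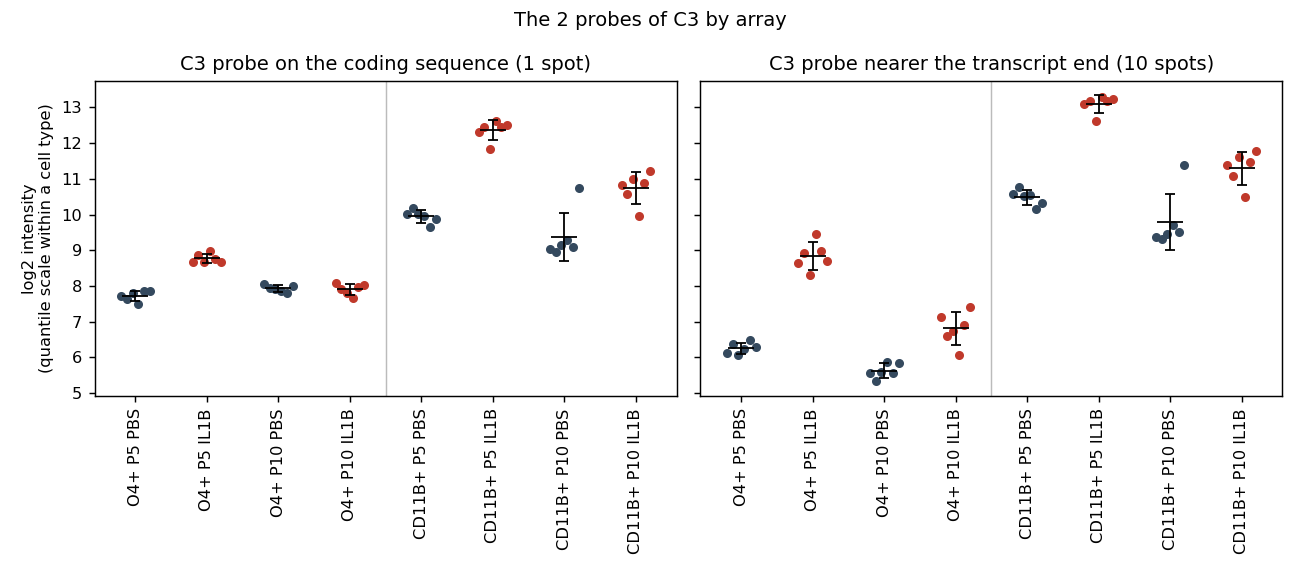
Log2 intensity of C3 on its 2 probes in the 8 groups of 6 arrays, normalised within a cell type, with a point per array and bars for the mean and SD. In O4+ cells at P10 the coding probe has the same range with PBS and IL1B (7.80 to 8.06 and 7.65 to 8.07), while the other has separate ranges (5.33 to 5.88 and 6.06 to 7.40), and in CD11B+ cells both follow the same order of groups.

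At baseline, C3, C4b and Cfb were lower in O4+ than in CD11B+ PBS cells, with log2 differences of -2.63, -1.51 and -3.51 at P5 and -1.87, -2.23 and -4.32 at P10 (adjusted p of C4b at P5 = 4.214e-06 from limma). On the C3 probe nearer the transcript end the differences were -4.60 (25.18-fold lower) and -4.59 (20.26-fold lower). Without the library labelled CD11B+ P10 PBS replicate 6, the P10 differences were -1.62, -1.80 and -4.05. From P5 to P10 Cfb fell 2.00-fold in O4+ PBS cells (adjusted p = 9.086e-04 from limma; -0.56 on the log2 scale and under 1.5-fold with another background correction), while C4b changed by -0.09 (adjusted p = 0.7011). In CD11B+ PBS cells C3, C4b and Cfb did not pass the age test (log2 changes -0.57, 0.66 and -0.43). Without the library labelled replicate 6, C3 fell by 0.85 on the log2 scale (adjusted p = 1.121e-04 from limma) and Cfb by 0.71 (adjusted p = 0.001236), giving 4 members in place of 2.

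Neutrophil and monocyte markers moved with these components. Of the 9 on the array out of 10 listed, 8 were higher with IL1B in O4+ cells at P5 (median 1.97), 5 at P10 (1.35), and in CD11B+ cells 9 at P5 (3.59) and none at P10 (1.32). Their summed intensity was 26640 to 62580 in CD11B+ P5 PBS, 353900 to 527200 in CD11B+ P5 IL1B, 28010 to 164600 in CD11B+ P10 PBS and 57110 to 117600 in CD11B+ P10 IL1B. The value of 164600 was that of the library labelled replicate 6, and the other 5 PBS arrays lay between 28010 and 39610. Without it 7 of the 9 markers were higher with IL1B at P10 (median 1.71). In O4+ cells the sum was 483.9 to 773.2 in P5 PBS, with Ngp, Cd177 and Ccr2 not above background, 2103 to 32900 in P5 IL1B, 506.3 to 762 in P10 PBS and 820.6 to 2006 in P10 IL1B. Pearson r with the mean of these markers was taken over the 24 arrays of a cell type. In CD11B+ cells it was 0.96 with C3, 0.90 with Cfb and 0.78 with C4b. It was 0.92 with C4b, 0.88 with Cfb and 0.83 with C3 (0.94 on its other probe) in O4+ cells. Other CD11B+ values were 0.80 for C1qc, 0.76 for C5ar1, 0.70 for C3ar1, 0.63 for C1qb, 0.44 for Serping1 and -0.01 for C1qa. The C1q genes and both receptors had 0.74 to 0.76 in O4+ cells, and Serping1 0.60. These correlations were taken across arrays that share groups, and the part of such cells in the complement values was not tested.

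The receptor C3ar1, which binds C3a, rose with IL1B in O4+ cells. It had a lowest, median and highest value of 7.60, 7.86 and 8.23 with PBS and 9.53, 9.83 and 10.19 with IL1B at P5, and of 5.34, 5.89 and 6.36 against 6.44, 6.73 and 7.34 at P10. The groups did not overlap at either age. The ratios were 3.94-fold at P5 (log2 change 1.96, SE 0.12, adjusted p = 2.794e-06 from limma) and 1.78-fold at P10 (0.83, SE 0.19, adjusted p = 0.02002), and the response at P10 was smaller (difference -1.13, adjusted p = 0.002484). The P10 call was lost with slide as a block (0.87, adjusted p = 0.06322 from limma) and with another background correction (0.46).

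In CD11B+ cells the C3ar1 values at P5 were 11.29, 11.48 and 11.52 with PBS and 11.85, 12.04 and 12.40 with IL1B, and at P10 10.34, 10.53 and 10.75 against 10.88, 11.18 and 11.45. The groups were again separate, but the P5 ratio of 1.47-fold (log2 change 0.62, SE 0.08, adjusted p = 2.703e-04 from limma) missed the fold threshold. It passed without PBS replicate 3, 5 or 6 (0.63, 0.64 and 0.63). At P10 C3ar1 was 1.57-fold higher (0.65, SE 0.11, adjusted p = 0.01461 from limma), with 0.69 without the library labelled PBS replicate 6 and 0.41 with slide as a block (adjusted p = 0.3584). At P5 the response was larger in O4+ cells by 1.44 (interaction adjusted p = 1.287e-06 from limma).

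C5ar1, which binds C5a and is the chemotactic receptor of the pathway, rose from near background in O4+ cells at P5. With PBS it lay at 3.07, 3.46 and 4.26 (lowest, median, highest), with 1 of 6 arrays well above background, and with IL1B at 6.41, 6.69 and 7.10, with 6 of 6. The ratio of medians was 9.38-fold (log2 change 3.20, SE 0.19, adjusted p = 1.74e-06 from limma), of which the PBS side rests on dim spots. At P10 C5ar1 was not well above background on any O4+ array, and no fold is given. The smaller response at P10 (-2.87, adjusted p = 6.636e-05 from limma) sets a measured rise against 2 groups below background.

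In CD11B+ cells C5ar1 went from 7.76, 7.85 and 8.18 with PBS to 9.34, 9.69 and 9.90 with IL1B at P5, with no overlap, a ratio of 3.58-fold (log2 change 1.74, SE 0.11, adjusted p = 1.081e-06 from limma). At P10 it was 6.30, 6.63 and 6.94 against 6.48, 7.07 and 7.36, which overlapped (0.38, SE 0.15, adjusted p = 0.1493). The response at P10 was smaller (difference -1.36, SE 0.19, interaction adjusted p = 2.579e-05 from limma), also without the library labelled PBS replicate 6 (-1.32). The O4+ response at P5 was larger by 1.48 (adjusted p = 6.123e-05 from limma), and another background correction turned this to -0.31 (adjusted p = 0.09216).

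In PBS cells C3ar1 was lower at P10 than at P5 in both cell types, and C5ar1 in CD11B+ cells. C3ar1 fell 3.90-fold in O4+ cells (adjusted p = 5.011e-06 from limma) and 1.93-fold in CD11B+ cells (adjusted p = 1.702e-05), and C5ar1 fell 2.33-fold in CD11B+ cells (adjusted p = 2.714e-05). In O4+ cells the C5ar1 difference was -1.66 on the log2 scale (adjusted p = 5.168e-04 from limma), between groups with 1 and 0 of 6 arrays well above background, and no fold is given. In CD11B+ cells C3ar1 and C5ar1 were the only members called between the ages with all 12 PBS arrays. Against CD11B+ cells, C3ar1 was 15.30-fold lower in O4+ PBS cells at P5 and 32.19-fold lower at P10, and C5ar1 28.58-fold lower at P5, where 1 of 6 O4+ arrays was well above background, and at least 8.16-fold lower at P10. That bound sets the CD11B+ mean against the dimmest signals that were well above background on the O4+ arrays.

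Serping1 blocks the C1 proteases. In O4+ cells it had a lowest, median and highest value of 7.37, 7.95 and 8.51 with PBS and 7.55, 8.19 and 9.34 with IL1B at P5, and 7.26, 7.64 and 7.82 against 7.75, 8.19 and 8.71 at P10. In CD11B+ cells it had 6.26, 6.57 and 8.06 against 6.68, 6.997 and 7.54 at P5, and 5.58, 5.93 and 7.37 against 6.73, 7.14 and 7.89 at P10. The groups overlapped in all 4 comparisons. At P5 the log2 changes were 0.31 (SE 0.30, adjusted p = 0.5386 from limma) in O4+ and 0.26 (SE 0.29, adjusted p = 0.5906) in CD11B+ cells.

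At P10 Serping1 changed by 0.67 in O4+ cells (SE 0.16, adjusted p = 0.02241 from limma), a ratio of 1.47-fold, which passed the threshold without IL1B replicate 2, 4 or 5 (0.69, 0.69 and 0.76). In CD11B+ cells it changed by 1.05 (SE 0.30, adjusted p = 0.05873 from limma), 1.30 without the library labelled PBS replicate 6 (SE 0.20, adjusted p = 0.00361), and 1.56 on its junction probe (SE 0.35, adjusted p = 0.02829). Serping1 was 2.27-fold higher in O4+ than in CD11B+ PBS cells at P10 (log2 difference 0.91, adjusted p = 0.01154 from limma), a call lost with slide as a block (0.85, adjusted p = 0.06711). On the junction probe the difference was called at both ages with every array (1.03 at P5 and 1.44 at P10, adjusted p = 0.04329 and 0.005867 from limma). On the probe that stands for the gene, the P5 difference of 0.66 did not pass (adjusted p = 0.112), but it did without CD11B+ P5 PBS replicate 5 (0.91, adjusted p = 0.006054). That array had the highest Serping1 value of its group and summed astrocyte and fibroblast markers of 45670 and 14020, beside 7031 to 15560 and 2105 to 4071 on the other 5. Over the 24 O4+ arrays Serping1 had an r of 0.73 with the mean of the astrocyte markers, and over the 24 CD11B+ arrays of 0.54. The part of those cells was not tested.

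Mean levels over the 8 groups were put in order on values normalised over all 48 arrays. The CD11B+ groups came before the O4+ groups for the C1q genes, C3, both receptors and Cfb, although the ranges of neighbouring groups often overlapped. For Cfb, the place of CD11B+ P10 PBS (9.24) above O4+ P5 IL1B (9.13) rests on the library labelled replicate 6 (10.58). The other arrays of that group lay at 8.73 to 9.13, and their mean is below that of O4+ P5 IL1B. For C1qa the lowest CD11B+ group had a mean of 16.24 and the highest O4+ group 14.94, with no overlap, while the 4 CD11B+ groups overlapped each with the next. C5ar1 was highest in CD11B+ P5 IL1B (9.80), then CD11B+ P5 PBS (8.14), CD11B+ P10 IL1B (7.26) and CD11B+ P10 PBS (6.89), and only the last 2 of these overlapped as neighbours. For C4b, O4+ P5 IL1B (10.28) came between CD11B+ P10 PBS (10.37) and CD11B+ P5 PBS (9.75), and overlapped with both. The place of CD11B+ P10 PBS above O4+ P5 IL1B again rests on the library labelled replicate 6 (12.52). The other arrays of that group lay at 10.11 or lower for C4b. Serping1 ran from 8.01 in O4+ P5 IL1B to 6.40 in CD11B+ P10 PBS, with each neighbour overlapping the next.

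The genes most alike to each member were found by Pearson r of log2 values over the 24 arrays of a cell type, which share the groups. In O4+ cells C1qa was closest to Emr1 (r = 0.9972), Rac2 and Slc15a3, C1qb to Rac2, Emr1 and Fyb, and C1qc to Emr1, Fyb and Trem2. C3ar1 was closest to Slc15a3, Emr1 and Lcp1, and C5ar1 to Ccl12, Cryba4 and Csf2rb. C3 was closest to Lcn2 (r = 0.9484), C4b to Tgtp2 (0.9463), Cfb to Serpina3g (0.9765) and Serping1 to Ifitm3 (0.8789). In CD11B+ cells C3 was closest to Sirpb1b (0.9898), C4b to Ccl8 (0.9589) and Cfb to Fgl2 (0.9875), followed by Serpina3g and Fcgr4. Serpina3g and Fcgr4 stood among the 3 closest to Cfb in both cell types.

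Other complement genes were counted by their place in the pathway, beside the shares of all probes higher with IL1B given above (3.44 and 2.49% in O4+ cells at P5 and P10, 4.06 and 1.09% in CD11B+ cells). Among 10 further classical and lectin pathway genes, 3 were higher in O4+ cells at P5, namely the C1 proteases C1ra (log2 change 1.99, adjusted p = 9.916e-05 from limma) and C1s (1.74, adjusted p = 0.002014) and their substrate C2 (1.00, adjusted p = 0.01477). At P10 C1ra (1.00), C1s (1.18) and the lectin pathway protease Masp1 (0.75) were higher and Colec11, a collectin, lower (-0.80, adjusted p = 0.009351 from limma). In CD11B+ cells Fcnb, a ficolin, was higher at P5 (2.71, adjusted p = 1.569e-05 from limma) and no gene of the list was called at P10, when Fcnb was called without the library labelled PBS replicate 6 (2.19).

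Of 9 alternative pathway and terminal genes, none was higher in O4+ cells at either age, 1 was called lower at P10 (C6, near background), and 2 were higher in CD11B+ cells at P5. These were Hc, the C5 gene (2.25, adjusted p = 0.01403 from limma), and C6 (1.99, adjusted p = 9.477e-05). At P10 none was called in CD11B+ cells, and C6 was called without that library (1.97). Among further regulators, Cd55, which speeds the decay of convertases, was higher in CD11B+ cells at P5 (3.01, adjusted p = 3.693e-07 from limma) and P10 (0.96, adjusted p = 0.02327; 1.14 without the library labelled PBS replicate 6), and without that library Vtn was called at P10 (1.09).

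Among 8 further receptors, 3 were higher in O4+ cells at P5, namely the second C5a receptor C5ar2 (listed as Gpr77, 1.92), the integrin chain Itgb2 (1.73) and Vsig4 (1.92, adjusted p = 0.01525 from limma), and the integrin chain Itgax was higher at P10 (2.43, adjusted p = 0.00859). In CD11B+ cells at P5 C5ar2 (2.22), Itgb2 (1.04) and Vsig4 (1.71) were higher and Itgax lower (-0.83, adjusted p = 4.367e-04 from limma). At P10 Itgax (1.28), Vsig4 (0.98) and Cd93 (0.58) were higher, with 1.46, 1.02 and 0.62 without that library. Itgax also fell between the ages in PBS cells, with log2 changes of -3.24 in O4+ and -2.25 in CD11B+ cells (adjusted p = 1.635e-06 and 2.423e-05 from limma). Itgam entered these counts by its brightest probe, which was not called with IL1B in either cell type. Its other probes were called higher at P5 in O4+ cells (1.78 and 1.12, adjusted p = 5.17e-06 and 2.945e-04 from limma). The same probes were higher in CD11B+ cells at P5 (0.78 and 0.80, adjusted p = 1.314e-05 and 3.485e-04), and neither was called at P10.

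In PBS cells some regulators differed the other way from the members. Susd4 and Csmd1, complement regulators of the membrane, were higher in O4+ than in CD11B+ cells by 4.82 and 4.04 at P5 and by 4.00 and 3.33 at P10 (adjusted p at most 2.003e-09 from limma).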

How the data were processed

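Microarray data of 48 samples were used, 8 groups of 6. Labels of the P10 samples repeat a P5 description, so groups were taken from title, source and stage. The deposited intensity values are the processed signal of the scanner software (Feature Extraction 10.7.3.1, build mm9), background-subtracted by the authors' settings. A deposited table of ratios, each intensity over its array's median (largest log2 deviation 1.86e-05), served as an alternative. The flags for background, saturation and outlier spots are those deposited by the authors (scanner scores of 0 or 1). Outlier spots were left out, log2 values were quantile-normalised over the 24 arrays of a cell type (over 48 between cell types), spots of a probe were averaged, and limma 3.58.1 in R 4.3.3 was fitted to 6 against 6 arrays, or to 4 groups for a difference of responses, with Benjamini-Hochberg adjustment over 55681 probes. Calls needed adjusted p under 0.05 and a ratio of medians over 1.5 (no ratio for differences of responses). A gene with several probes was given by the one with the highest mean. The scripts were tested on simulated data. The members, gene lists and tests were chosen with earlier results of these data known. Named genes were the members, listed complement genes that were called, markers beside a result, and the 3 genes of highest correlation per member among probes well above background on at least 12 arrays. The number of arrays limits the precision. Alternatives were other scaling, background correction (normexp, offset 50), the deposited values, filters, slide, scan date and replicate number as blocks, the other probe, and each array left out in turn. One listed complement regulator is not reported here.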

Additional observations from a re-analysis of the deposited data

Results flagged for a closer look

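Single arrays stood apart from the other 5 of their group in 7 of the 72 combinations of member and group tested with Dixon's criterion, of which chance flags about 1 in 20. The library labelled CD11B+ P10 PBS replicate 6 was the highest of its group for C3 (10.74 on the log2 scale, next 9.28), C4b (12.50, next 9.96), Cfb (10.47, next 8.93) and Serping1 (7.37, next 6.21). CD11B+ P5 PBS replicate 5 was the highest for C4b (10.08, next 9.59) and Serping1 (8.06, next 6.89). O4+ P10 PBS replicate 3 was the highest for C1qc (12.43, next 11.84).

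The response to IL1B differed between ages or cell types, by an interaction term in limma, for the following members. Between P10 and P5 in O4+ cells the log2 change was smaller at P10 for C1qa (-0.97), C1qb (-1.15), C1qc (-0.99), C3 (-1.07), C3ar1 (-1.13) and C5ar1 (-2.87), 6 members against 5.32% of all probes. In CD11B+ cells it was smaller at P10 for C3 (-1.05) and C5ar1 (-1.36), 2 members against 6.3% of all probes. Between O4+ and CD11B+ cells at P5 it was larger in O4+ cells for C1qa (1.62), C1qb (1.55), C1qc (1.57), Cfb (0.77), C3ar1 (1.44) and C5ar1 (1.48), 6 members against 6.93% of all probes, and smaller for C3 (-1.21). At P10 it was larger for C1qc (0.59) and smaller for C3 (-1.31), with 7.56% of all probes called in either direction. The difference for C3 between the cell types was called on its coding probe and not on its other one. Those for Cfb and C5ar1 at P5 were lost with another background correction. C5ar1 was well above background on 1 of 6 O4+ P5 PBS arrays.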

How the results depend on the processing

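Counts of members called were within 1.5 times the reported ones in most settings, and the methods' equal-variance test with Benjamini-Hochberg adjustment gave 8 members in O4+ cells at P5, 6 at P10 and 4 in CD11B+ cells at both ages. Exceptions for CD11B+ cells were 7 at P5 with no fold threshold, and at P10 2 with the replicate block and 0 with slide as a block, where 2 probes in all were called. The difference of responses between the ages in CD11B+ cells gave 1 member with the deposited values and 1 with the other probe. That between the cell types at P10 gave 1 with 75th percentile scaling, 1 with the deposited values, 1 with the other probe, 0 with slide as a block, and 4 with normexp, the replicate block or scan date as a block. The cause was not tested. With each array left out, the counts ran from 8 to 8 in O4+ cells at P5, 4 to 7 at P10, 4 to 5 in CD11B+ cells at P5 and 1 to 5 at P10, 6 to 6 and 2 to 4 between the ages in O4+ and CD11B+ cells (4 without the library labelled P10 PBS replicate 6), and 8 to 9 and 9 to 9 between the cell types at P5 and P10. Without that library the differences of responses gave 2 and 3.

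Signs turned in 19 cases. With IL1B in O4+ cells at P10, C5ar1 had -0.0135 with 75th percentile scaling, and C3 0.0619 with slide as a block, 1.18 on the other probe, and -0.0561 to 0.0281 with each array left out (0.0028 without PBS replicate 1). Between the ages, C3 in O4+ cells had -0.63 on the other probe, C4b 0.0058 without P5 PBS replicate 5, and C1qb in CD11B+ cells -0.0447 with 75th percentile scaling and -0.0099 with the deposited values. The differences of responses that turned were, in CD11B+ cells, C1qa (-0.0727, 75th percentile) and C3ar1 (-0.0168, slide), at P5 C5ar1 (-0.31, normexp), Serping1 (-0.84, slide, and -0.0015, other probe) and C3 (0.13, other probe), and at P10 Cfb (-0.42, normexp), C3ar1 (-0.17, normexp), C4b (0.32, slide) and Serping1 (0.39, slide).

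Same-numbered samples of the groups compared had correlations of their deviations from -0.0809 to 0.482, and in no comparison did every pair pass 0.1, so the numbers were not taken to pair the samples. Between O4+ and CD11B+ PBS samples they ran from 0.0239 to 0.122 at P5 and 0.0304 to 0.153 at P10, with 4 and 5 of 6 samples closest to their own number, a hint from the data and not the design. With the replicate block the C4b and Cfb calls in CD11B+ cells at P10 were lost (adjusted p = 0.07095 and 0.07379 from limma), Serping1 was called higher in O4+ than CD11B+ PBS cells at P5 (adjusted p = 0.03955), and C1qa and C1qb joined the difference between the cell types at P10 (log2 differences 0.53 and 0.52). Low signal limits C5ar1 and Cfb in O4+ cells, where background correction moves the values most.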
